A study of Mus musculus with 9 samples.

Results

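Voltage-gated sodium and calcium channels, with the hyperpolarisation-activated HCN channels and the sodium leak channel NALCN, were followed through neuronal nuclei of the mouse hippocampus. The members were all genes whose mouse symbol names an alpha or beta subunit of a sodium channel (Scn), an alpha1, alpha2delta or beta subunit of a calcium channel (Cacna1, Cacna2d, Cacnb), an HCN channel or Nalcn. Of the 48709 genes in the count tables, 37 met this rule, and all 37 were present in the table of every mouse. They comprise 10 sodium channel alpha subunits, 4 sodium channel beta subunits, 10 calcium channel alpha1 subunits, 4 alpha2delta subunits, 4 calcium channel beta subunits, 4 HCN channels and Nalcn.

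Neuronal nuclei were sorted by their NeuN stain from frozen hippocampi, and their RNA was sequenced in 3 WT mice (C57BL/6J), 3 Tg4-42 mice and 3 Tg4-42 mice that drank water with caffeine. Tg4-42 mice are homozygous, on the C57BL/6J background, and carry human Aβ4-42 fused to a murine thyrotropin-releasing hormone signal peptide under the murine Thy1 promoter, which drives expression in neurons. Caffeine was given at 300 mg/l for 4 months from 2 months of age, so that the mice were 6 months old at the end. The control mice received tap water according to the study's methods, whereas the sample labels state a treatment for the caffeine group alone, and there was no caffeine-treated WT group among the libraries. The genotype label of the untreated Tg4-42 mice reads APP Transgenic, whereas the study describes the line as free of human APP overexpression. For the preparation of nuclei, the labels state 6 mice in each group and the methods state 3. The labels give no sex, and the study's methods describe the freezing of hippocampi for male Tg4-42 mice.

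Each library held 9342945 to 16376922 reads on exons, so that 3 counts, taken as the limit of detection, equalled 0.183 to 0.321 CPM, a count divided by its library's scaled total. This limit covers counting error only. Within a group, the correlation of log2 CPM between mice across genes lay between 0.982 and 0.989, and no 2 libraries of a group agreed within sampling noise. The summed level of 5 neuronal marker genes (Rbfox3, Snap25, Syt1, Map2 and Tubb3) was 5129 to 7745 CPM, against 22.3 to 38.8 CPM for 6 microglial markers. The 7 oligodendrocyte markers summed to 256 to 511 CPM and the 6 astrocyte markers to 276 to 415 CPM, so RNA of glial genes was present in all sorted libraries. In such bulk libraries, fewer nuclei of a type and less RNA per nucleus cannot be told apart.

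Sodium channels open on depolarisation and carry the rising phase of the action potential. Each has a pore-forming alpha subunit, which beta subunits accompany at the membrane. Voltage-gated calcium channels turn depolarisation into calcium entry, with an alpha1 subunit as the pore and alpha2delta and beta subunits that govern its trafficking and gating. The Cav1 (L-type) pores are known for coupling activity to transcription, the Cav2 (P/Q-, N- and R-type) pores for transmitter release, and the Cav3 (T-type) pores for opening near rest and supporting burst firing. HCN channels open on hyperpolarisation and set resting conductance in dendrites, and NALCN carries a background sodium current.

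Sequence similarity within the sodium channel family bears on the values given for it, because the reads were 50 bases long. The genes Scn3a (chr2:65457118-65567627), Scn2a (chr2:65620771-65767447), Scn1a (chr2:66270778-66440840), Scn9a (chr2:66480080-66634962) and Scn7a (chr2:66673425-66784914) lie in the same region of chromosome 2 in mm10 (GRCm38).

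Scn2a also has coding sequence in common with Scn8a, which lies on chromosome 15. Their longest identical run was 50 bases, the length of 1 read, across exons 5 and 6 of the longest coding transcript of each gene. It lies between chr2:65682124-65682737 for Scn2a and chr15:100957588-100959650 for Scn8a, both on the plus strand, with an intron inside each interval. The same 50 bases are part of a run of 55 that Scn3a shares with Scn8a. The sequences are shown because a read that covers the run cannot be assigned to 1 gene. Capitals mark the shared bases, read 5′ to 3′ along the coding strand, and lower case marks the 12 coding bases on each side.

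Scn2a, exons 5 and 6: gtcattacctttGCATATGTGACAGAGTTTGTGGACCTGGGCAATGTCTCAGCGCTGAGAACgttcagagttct
Scn8a, exons 5 and 6: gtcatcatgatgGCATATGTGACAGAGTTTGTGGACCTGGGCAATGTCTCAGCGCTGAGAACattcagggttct

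Over all annotated transcripts, 6.49% of the 50-base words of Scn3a, 5.76% of those of Scn2a, 4.04% of those of Scn9a and 4.03% of those of Scn1a also occurred on the same strand in another gene. For Scn8a the share was 0.0374% and for Scn10a 1.66%. The levels of Scn1a, Scn2a, Scn3a and Scn9a are therefore uncertain by the reads from these shared stretches, whose handling by the counter is not given in the sources used here. The library kit does not mark strand, so reads from a gene on the opposite strand are a second source of doubt. Words shared with the opposite strand made up 15.8% of Hcn3 (Pklr), 15.01% of Cacnb4 (A430018G15Rik), 5.87% of Cacnb2 and 4.18% of Cacna1d (Chdh).

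The level of each channel gene was expressed as CPM per kilobase of exon (CPM per kb), the scale on which genes of different length were compared. On this scale the family spanned several orders of magnitude, from Scn3b with 98.4 CPM per kb over the 9 mice to 4 genes that did not pass the filter on low counts. These 4 were Scn4a, the skeletal muscle channel, Cacna1s, its calcium channel counterpart, Scn11a, a channel of sensory neurons, and Hcn4, the pacemaker channel of the heart. No library held more than 10 counts of any of them. Scn10a, Cacna1f and Cacna2d4, best known from sensory ganglia and the retina, passed the filter at 0.0703, 0.101 and 0.160 CPM per kb.

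**Figure D1:**
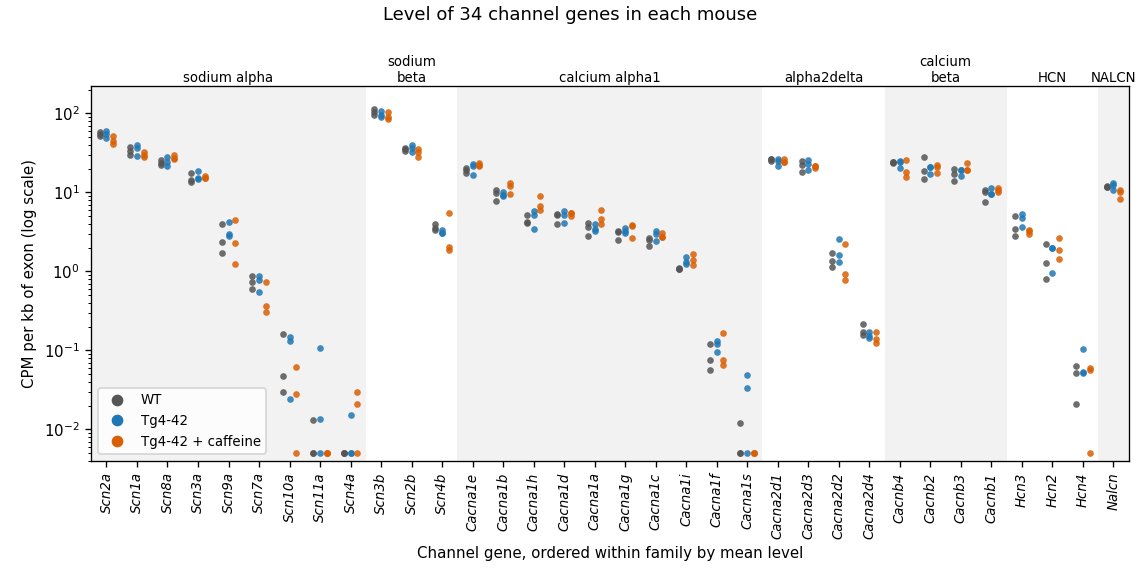
Level of 34 channel genes in CPM per kb of exon on a log scale, 1 point per mouse, with genes ordered within each family by mean level. Mice without a count of a gene are drawn at 0.005, and Scn3b and Scn2a lie highest, with means of 98.4 and 51.8 CPM per kb.

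Among the sodium channel alpha subunits, Scn2a (Nav1.2), the main pore of excitatory axons early in life, had the highest level in all 9 mice. Its level was 740.4, 661 and 690.1 CPM in the WT mice, 763, 615 and 702 CPM in the Tg4-42 mice and 662, 529.5 and 571 CPM in the caffeine-treated Tg4-42 mice. In this group 2 mice lay below all others, while the third lay inside the range of the untreated groups. Scn1a (Nav1.1), known as the channel of interneuron axons, stood at 417.5, 327 and 368 CPM in WT, 445.5, 319 and 405 CPM in Tg4-42 and 361.5, 336 and 314 CPM in caffeine-treated Tg4-42 mice, and its 3 groups overlapped. Per kb of exon, Scn2a had a mean of 51.8, Scn1a of 32.8, Scn8a (Nav1.6, the adult channel of the axon initial segment) of 25.5 and Scn3a (Nav1.3) of 15.7. Scn1a lay above Scn8a in 8 of 9 mice.

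Scn9a followed with 2.89 and Scn7a with 0.644 CPM per kb. Scn2a made up 34.7% to 42.8% of the summed level per kb of the 10 alpha subunits, Scn1a 23.3% to 27.5% and Scn8a 16.6% to 24.8%. The share of Scn8a was 16.7% to 19.7% in WT, 16.6% to 19.9% in Tg4-42 and 20.7% to 24.8% in caffeine-treated Tg4-42 mice, so that the caffeine-treated mice did not overlap with the others. This share was looked at after its values were known, and 0.1 is the smallest p that an exact permutation test could reach with 3 mice in each group.

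A beta subunit reached the highest level of the whole family. Scn3b, whose product modulates the inactivation of the alpha subunits, lay above every other member in each of the 9 mice. It had 570.3, 617 and 517 CPM in WT, 524, 581 and 494 CPM in Tg4-42 and 572, 471 and 491 CPM in caffeine-treated Tg4-42 mice, with all groups overlapping. Scn2b had a mean of 34.4 CPM per kb. Scn4b had 3.29 CPM per kb, with 27.0 CPM in the first caffeine-treated mouse against 9.20 and 10.2 CPM in the other 2.

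Of the calcium channel alpha1 subunits, Cacna1e (Cav2.3, R-type) led in all 9 mice, with 36.1% to 41.2% of the summed level per kb of the 10 pores. Cacna1e was measured at 515, 449.5 and 484.5 CPM in WT, 579, 539.7 and 419 CPM in Tg4-42 and 547, 559 and 598 CPM in caffeine-treated Tg4-42 mice. Cacna1b (Cav2.2, N-type) was measured at 96.7, 76.6 and 105 CPM, at 99.6, 92.9 and 90.7 CPM and at 94.5, 121 and 130.5 CPM in the same order of groups. For both pores the caffeine-treated and untreated Tg4-42 mice overlapped. The 3 Cav2 pores summed to 28.3 to 42.8 CPM per kb, the 3 Cav3 pores to 8.01 to 14.2 and the 4 Cav1 pores to 6.21 to 9.18. Within Cav1, Cacna1d took 60.6% to 66.0% and Cacna1c 32.5% to 36.7% of the level per kb. Within Cav3, Cacna1h took 43.4% to 64.1%, and Cacna1g had 3.23 and Cacna1i 1.29 CPM per kb.

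**Figure D2:**
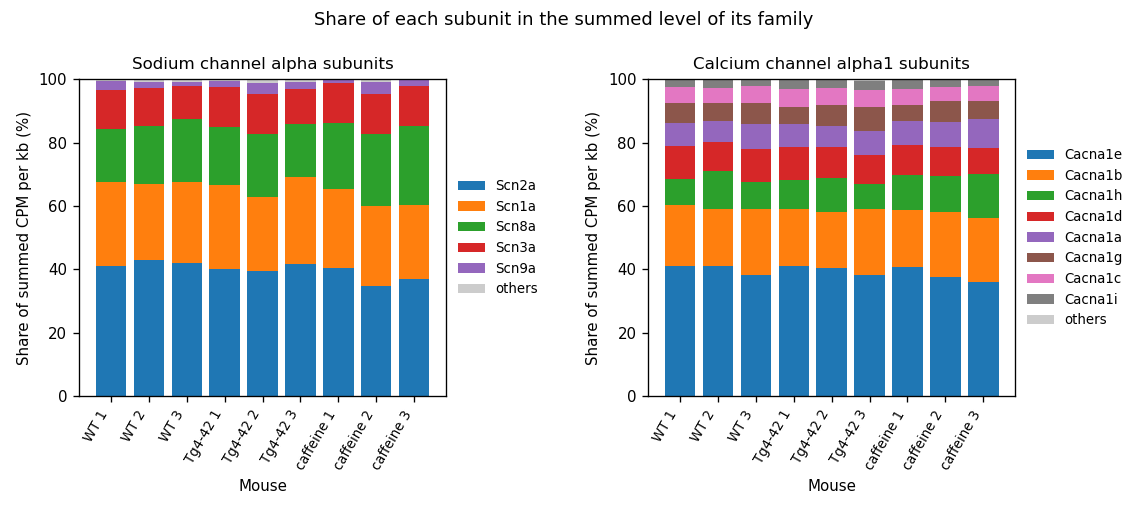
Share of each gene, in percent, in the summed CPM per kb of the sodium channel alpha subunits (left) and the calcium channel alpha1 subunits (right), 1 bar per mouse. Scn2a and Cacna1e form the largest part of every bar, with 34.7% to 42.8% and 36.1% to 41.2%.

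The alpha2delta subunits bring the pores to the membrane. Cacna2d1, the binding site of gabapentin, had 332, 311 and 331 CPM in WT, 334, 265 and 315 CPM in Tg4-42 and 325, 297 and 301 CPM in caffeine-treated Tg4-42 mice. Cacna2d3 had 157, 196 and 220.5 CPM, then 168.5, 202 and 224 CPM, then 187, 179 and 187 CPM. Both genes overlapped in all groups, and together with Cacna2d2 at 1.52 CPM per kb they made up nearly all of the alpha2delta level. The sum over the 4 beta subunits lay between 69.7 and 73.98 CPM per kb in all 9 mice.

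Cacnb4, a beta subunit whose loss causes epilepsy and ataxia in the lethargic mouse, stood at 213, 215 and 220 CPM in WT and 223, 184 and 221 CPM in Tg4-42 mice. In caffeine-treated Tg4-42 mice it stood at 231, 164 and 141 CPM, so that the first mouse was the highest and the others were the lowest of all 9. Cacnb2 was at 375, 246 and 193 CPM, at 279, 279 and 229.6 CPM and at 234, 298 and 279 CPM, and its widest spread was among the WT mice. Cacnb3 and Cacnb1 followed at 18.5 and 10.1 CPM per kb, which made all 4 beta subunits well detected. The neighbours Cacnb4, Cacna2d3, Cacna1e and Cacnb2 did not differ in level beyond their spread, each lying above the next in 4 or 5 of 9 mice. Hcn3 had 3.84, Hcn2 1.68 and Nalcn 11.3 CPM per kb.

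The comparison of caffeine-treated with untreated Tg4-42 mice asks what the treatment altered in the transgenic neurons. None of the 33 members tested passed an adjusted p of 0.05 in edgeR's quasi-likelihood test with Benjamini-Hochberg adjustment over 17361 genes, of which 0.881% did. DESeq2 and limma-voom also called 0 members, while they called 740 and 587 genes, 5.04% and 3.38% of those given an adjusted p. At an unadjusted p under 0.05 there were 5 members, 2 higher and 3 lower with caffeine, which is 15.2% of those tested against 17.0% of all genes (7.15% higher and 9.82% lower). Cacna1h, Cacna1a, Nalcn and Hcn3 were among them, and these 4 are described with their values in each mouse because of their low p, not because they passed the test.

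Cacna1h encodes Cav3.2, a T-type channel that opens near the resting potential. It was measured at 50.0, 56.4 and 33.9 CPM in the Tg4-42 mice and at 58.5, 65.8 and 89.0 CPM in the caffeine-treated Tg4-42 mice. All caffeine-treated mice lay above all untreated ones, by 0.60 on the log2 scale (SE 0.19, 95% interval 0.20 to 1.01, unadjusted p = 0.0062 and adjusted p = 0.13 in edgeR). Without a filter on low counts the adjusted p was 0.0031, and over the alternatives it ranged up to 0.51, reached without the third caffeine-treated mouse, where the difference was 0.42.

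Cacna1a encodes Cav2.1, the P/Q-type channel of presynaptic terminals. Its level was 44.9, 39.3 and 36.8 CPM in Tg4-42 and 45.3, 52.3 and 68.7 CPM in caffeine-treated Tg4-42 mice. The groups did not overlap, although the lowest caffeine-treated mouse exceeded the highest untreated mouse by less than 1 CPM, and the difference was 0.46 (SE 0.17, 95% interval 0.10 to 0.82, adjusted p = 0.18 in edgeR). Groups that did not overlap were found for 5 members, 15.2%, against 23.0% of all genes tested.

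Hcn3 was measured at 15.2, 19.6 and 22.2 CPM in Tg4-42 and at 13.7, 12.3 and 14.0 CPM in caffeine-treated Tg4-42 mice. Its difference was -0.52 (SE 0.21, 95% interval -0.97 to -0.06, adjusted p = 0.23 in edgeR), in a gene whose words are shared to 15.8% with the opposite strand of Pklr. Hcn2 had a difference of 0.26 with a wide 95% interval of -0.51 to 1.03.

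Nalcn was measured at 158, 196 and 181 CPM in Tg4-42 mice and at 148, 159 and 122 CPM in caffeine-treated Tg4-42 mice. The groups overlapped by the second caffeine-treated mouse, and the difference was -0.32 (SE 0.13, 95% interval -0.59 to -0.05, adjusted p = 0.22 in edgeR). Replicate 3 of each group was sequenced on lane 7 and the others on lane 6. Within lane 6, with 2 mice per group, the log2 differences were 0.22 for Cacna1h, 0.21 for Cacna1a, -0.19 for Nalcn and -0.40 for Hcn3. Within lane 7, with 1 mouse per group, they were 1.38, 0.89, -0.57 and -0.65. The differences were larger between the 2 mice of lane 7. The 4 genes were chosen by their low p in these same mice. For Cacna1h, Cacna1a and Hcn3 the groups did not overlap, so any split of the mice gives the same direction. The lanes are therefore no separate check of the direction.

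**Figure D3:**
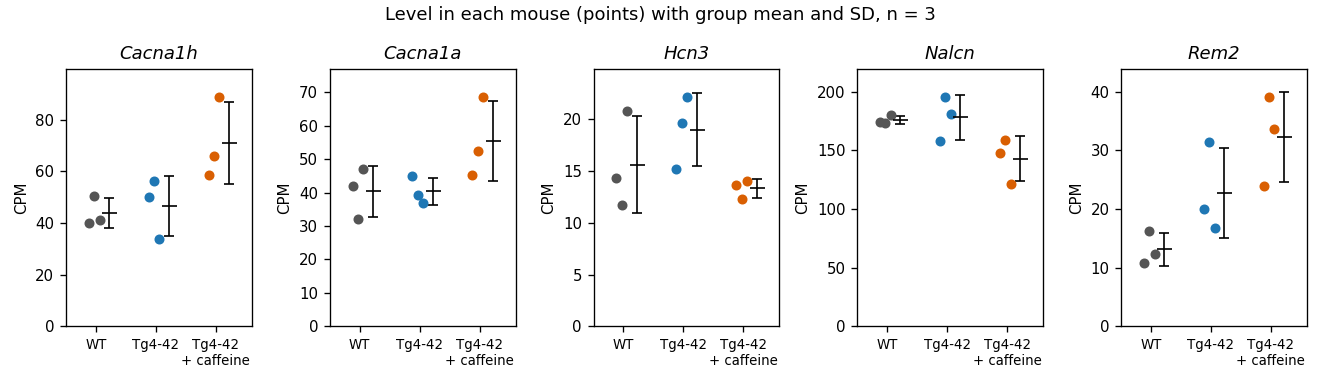
Level in CPM (axis from 0) of Cacna1h, Cacna1a, Hcn3, Nalcn and the partner gene Rem2 in each mouse, with the mean and SD of each group (n = 3). The 3 caffeine-treated mice lie at 58.5 to 89.0 CPM for Cacna1h and at 12.3 to 14.0 CPM for Hcn3, above and below all untreated Tg4-42 mice.

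By family, 7 of the 9 alpha1 subunits tested had a log2 fold change above 0 with caffeine, and all 3 Cav2 and all 3 Cav3 pores were among them. Of the 8 sodium channel alpha subunits tested, 7 had a value below 0 and Scn8a had 0.19 (95% interval -0.08 to 0.45). None of these values had an adjusted p under 0.05. Over the 33 members, 14 values were above 0 (42.4%, against 48.5% of all genes) and 19 below, and the median was -0.06 against -0.01 for all genes. The values of the members ranged from -1.63 for Scn10a, with at most 20 counts in any library, to the 0.60 of Cacna1h.

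The precision of the comparison can be read from the intervals. For 17 of the 33 members the 95% interval lay within a 1.5-fold change in either direction, and for 25 within a 2-fold change. For Scn3b the interval of the log2 difference was -0.33 to 0.21, for Cacna2d1 -0.24 to 0.27, for Cacna1e -0.14 to 0.43 and for Scn2a -0.52 to 0.04. The intervals were wide for Scn10a, Scn9a, Cacna1f and Cacna2d2.

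**Figure D4:**
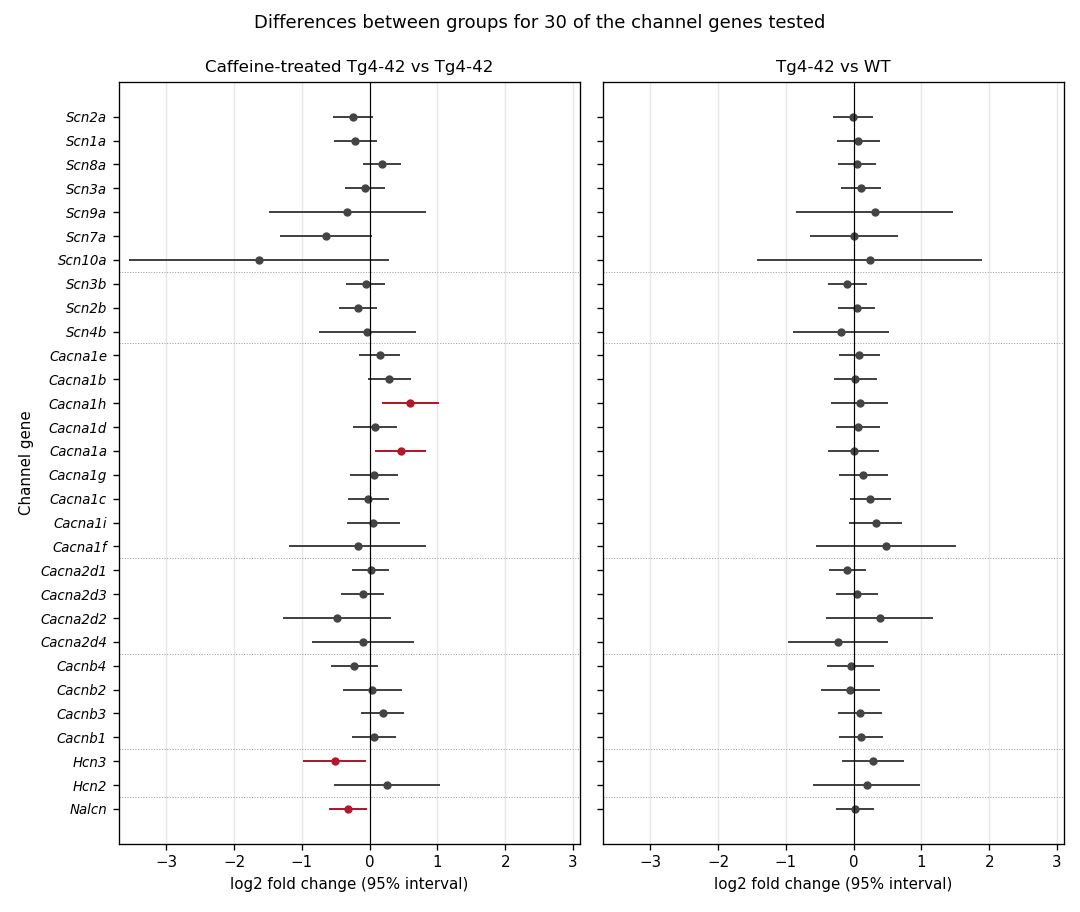
Log2 fold change and 95% interval of 30 of the members tested, for caffeine-treated against untreated Tg4-42 mice (left) and Tg4-42 against WT mice (right), with dotted lines between families. Red marks an unadjusted p under 0.05, found for 4 of these members on the left, from -0.52 for Hcn3 to 0.60 for Cacna1h, and for 0 on the right.

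The same groups were examined with 9 lists of marker genes. Of the 64 tested, 4 passed an adjusted p of 0.05 in edgeR, beside 0.881% of all genes, and 7 of the lists held none of them. The 10 markers of dentate granule cells summed to 600 to 1018 CPM in Tg4-42 and to 1175 to 1436 CPM in caffeine-treated Tg4-42 mice. All 10 had a log2 fold change above 0, and 3 were called (Plk5, Stxbp6 and Bcl11b). Prox1, Dsp and Calb1 were not called. The 11 interneuron markers summed to 1384 to 1952 CPM in Tg4-42 and to 935 to 1239 CPM in caffeine-treated Tg4-42 mice, all 11 below 0 and 1 called. The 6 CA1 markers summed to 506 to 599 CPM and to 448 to 480 CPM. The first caffeine-treated mouse had the lowest interneuron sum and the third the highest dentate sum.

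No list had a marker at 0 in all mice. In the same pair of groups the 6 CA3 markers summed to 248 to 329 and 235 to 275 CPM, the 7 subicular and neocortical markers to 179 to 211 and 110 to 156 CPM, the oligodendrocyte markers to 364 to 511 and 256 to 364 CPM, and the astrocyte markers to 296 to 415 and 276 to 349 CPM. The 6 microglial markers summed to 28.4 to 38.8 and 22.3 to 27.8 CPM, all 6 with a log2 fold change below 0. The 5 pan-neuronal markers summed to 6077 to 7745 and 5129 to 6442 CPM. Of these 5, 4 were below 0 and 3 had an unadjusted p under 0.05, beside 51.5% and 17.0% of all genes. The sums of 5 of the 9 lists did not overlap between the groups. Among single genes tested, 23.0% did not overlap. The third untreated Tg4-42 mouse had the highest interneuron sum (1952 CPM), the lowest dentate sum (600 CPM) and the lowest Cacna1h and Cacna1a of its group. Other mice went differently. The first caffeine-treated mouse had the lowest interneuron sum (935 CPM), and also the lowest Cacna1h and Cacna1a of its group. The second WT mouse had the highest dentate sum of its group (998 CPM), with its highest Cacna1h but its lowest Cacna1a. The part of these shifts in the channel values was not tested.

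**Figure D5:**
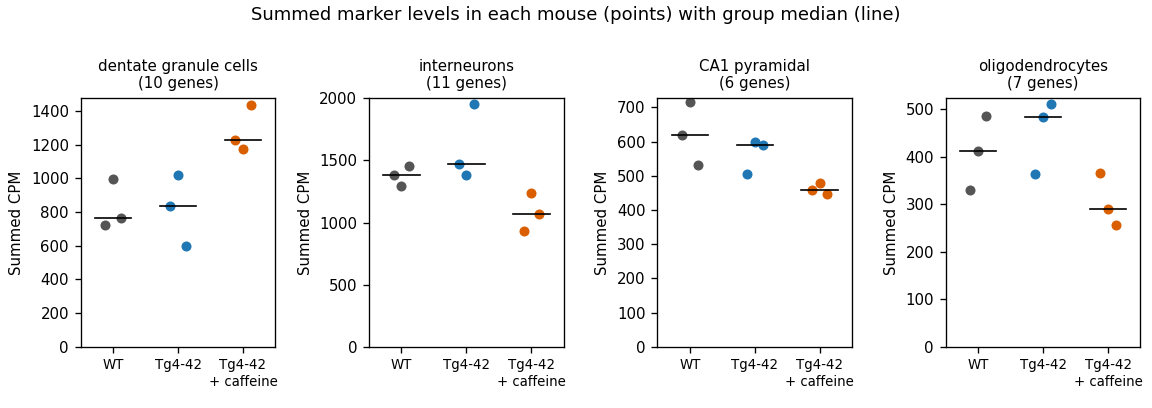
Summed CPM (axis from 0) of marker genes of dentate granule cells, interneurons, CA1 pyramidal cells and oligodendrocytes, 1 point per mouse, with the group median as a line. The caffeine-treated mice lie at 1175 to 1436 CPM for the dentate markers, above all other mice, and at 935 to 1239 CPM for the interneuron markers, below all other mice.

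The comparison of Tg4-42 with WT mice asks what the transgene altered. None of the 33 members passed in edgeR, against 0.0979% of all genes, and 0 had an unadjusted p under 0.05, against 2.74% of all genes. DESeq2 and limma-voom called 0 members, and 25 and 16 genes in all. The log2 fold change was above 0 for 24 members (72.7%, against 50.5% of all genes) and below 0 for 9, with a median of 0.07 against 0.00 for all genes. Cacna1i, a T-type pore, was the 1 member whose groups did not overlap (3.03% against 6.73% of all genes), with 10.7, 10.7 and 10.7 CPM in WT and 15.04, 13.0 and 12.3 CPM in Tg4-42 mice. Its difference was 0.33 (SE 0.18, 95% interval -0.05 to 0.71). It lies outside the rule for named genes and was chosen after its values were seen.

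The 4 members described above were closer between these groups. Cacna1h was at 39.9, 50.6 and 41.3 CPM in WT mice, and Tg4-42 differed from WT by 0.09 (95% interval -0.32 to 0.50). Cacna1a was at 41.8, 32.1 and 47.1 CPM, with a difference of -0.00 (95% interval -0.36 to 0.36). For both genes the WT and Tg4-42 mice overlapped. Nalcn was at 174, 174 and 179.9 CPM (difference 0.02, 95% interval -0.25 to 0.29) and Hcn3 at 14.3, 11.7 and 20.8 CPM (difference 0.29, 95% interval -0.16 to 0.73). For 21 of the 33 members the 95% interval lay within a 1.5-fold change, and for 28 within a 2-fold change.

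Caffeine-treated Tg4-42 mice were also set against WT mice, a comparison in which genotype and treatment differ together and which shares its samples with the other comparisons. It called 0 of 33 members in edgeR, against 0.415% of all genes, while 6 members had an unadjusted p under 0.05 (18.2%, against 15.4% of all genes). limma-voom called 0 and DESeq2 called 1, Cacna1h, with an adjusted p of 0.027, and over all genes they called 125 and 540, or 0.720% and 3.83% of those given an adjusted p. In edgeR, Cacna1h differed by 0.69 (SE 0.19, 95% interval 0.29 to 1.10, adjusted p = 0.11), and its 3 caffeine-treated mice were above all WT mice. Cacna1a differed by 0.46, Cacna1i by 0.38, Cacna1b by 0.31 and Nalcn by -0.30. Adjusted p for these was 0.21 to 0.31 in edgeR, with Cacna1i and Cacna1b named after their values were seen. Without the first caffeine-treated mouse, the 27.0 CPM of Scn4b dropped out and Scn4b was the only member called, beside 1.67% of all genes.

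Channels work with partner proteins that anchor, traffic or inhibit them, and 40 gene symbols were listed for such partners. Of these symbols, 37 were in the annotation and 33 were tested. In caffeine-treated against untreated Tg4-42 mice, edgeR called 0 of the 33, DESeq2 and limma-voom each called Cacng3 and Rims2 (2 of 33, beside the 5.04% and 3.38% of all genes given above), and 9 had an unadjusted p under 0.05 (3 higher and 6 lower, 27.3% against 17.0% of all genes). The lowest p was that of Cacng3, an AMPA receptor auxiliary subunit of the family named for a calcium channel gamma subunit. It was measured at 147, 122 and 173 CPM in Tg4-42 and 114, 70.0 and 87.0 CPM in caffeine-treated Tg4-42 mice, a difference of -0.71 (SE 0.18, adjusted p = 0.082 in edgeR).

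Rims2, a presynaptic scaffold that tethers calcium channels at release sites, differed by -0.45 (adjusted p = 0.10 in edgeR). The intracellular fibroblast growth factors that bind sodium channels went both ways, with -0.53 for Fgf12, -0.37 for Fgf14 and 0.36 for Fgf13. Sptbn4, the βIV spectrin of the axon initial segment, differed by 0.60, and Nfasc, an adhesion molecule of the same segment, by -0.25. Cacng5, of the same family as Cacng3, differed by -0.64. Their adjusted p in edgeR was 0.15 to 0.28. With no filter on low counts it was 0.017 for Sptbn4, 0.019 for Fgf12 and 0.020 for Cacng5, where 3.2% of all genes were called. Without the first caffeine-treated mouse it was 0.045 for Sptbn4, where 1.96% of all genes were called. Over the 16 alternatives, Cacng3 was called in 5 and Rims2 in 2.

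Rem2 is a small GTPase that inhibits calcium channels by way of their beta subunits. Of the 33 partners tested, it alone had an adjusted p under 0.05 in edgeR. This was in caffeine-treated Tg4-42 against WT mice (1 of 33, beside 0.415% of all genes). In that comparison 10 partners had an unadjusted p under 0.05 (6 higher and 4 lower, 30.3% against 15.4% of all genes). Rem2 lies at chr14:54476100-54480431. Cdh24, listed here as a CA3 marker, lies on the same chromosome at chr14:54631231-54641364. Cdh24 differed from WT by a log2 fold change of 2.18 in Tg4-42 mice (adjusted p = 0.00053 in edgeR). In caffeine-treated Tg4-42 mice it differed from WT by 2.53 (adjusted p = 8.4e-05 in edgeR). Whether the differences of the 2 genes are linked was not tested. The level of Rem2 was 10.7, 16.2 and 12.4 CPM in WT and 20.02, 31.4 and 16.7 CPM in Tg4-42 mice. In caffeine-treated Tg4-42 mice it was 24.0, 39.1 and 33.7 CPM. All caffeine-treated mice and all Tg4-42 mice lay above all WT mice. Caffeine-treated Tg4-42 mice were 2.45-fold higher than WT mice (log2 1.29, SE 0.24, adjusted p = 0.033 in edgeR). Tg4-42 mice differed from WT by 0.79 (unadjusted p = 0.0055, adjusted p = 1.00 in edgeR) and caffeine-treated from untreated Tg4-42 mice by 0.50 (adjusted p = 0.30). When any 1 of 5 of the 6 mice was left out, the adjusted p of caffeine-treated against WT mice rose to between 0.071 and 0.21 in edgeR. The exception was the first caffeine-treated mouse, and the log2 fold change stayed between 1.13 and 1.48. For untreated Tg4-42 against WT mice, Rem2 was called in 1 of the 16 alternatives.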

How the data were processed

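The authors mapped single-end 50-base reads to mm10 (GRCm38) with STAR and deposited raw exon counts per gene from featureCounts, one table per mouse, without normalization. Symbols for 48349 of 48709 genes came from GENCODE M21. The reads were not analysed here. Members, gene lists and tests were chosen with earlier results of these data known.

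Counts of all 9 libraries were fitted together in R 4.3.3 with edgeR 4.0.16 (quasi-likelihood, robust, TMM), after its filter on low counts (minimum 10, and 15 in total), and p was adjusted over 17361 genes with a threshold of 0.05. The fit was tested on simulated data. Intervals (95%) used the fit's SE and degrees of freedom. Alternatives were DESeq2 1.42.0, limma-voom (limma 3.58.1), RLE scaling, no filter or a stricter one (mean count 50), fits of 2 groups alone, a replicate block, the lane, GC and exon length corrections, and leaving out each mouse. Libraries held 9342945 to 16376922 counts. CPM used totals scaled by TMM (9239924 to 15831081), and within-lane differences log2(CPM + 0.5). Groups came from the labels, and nothing says how mice were matched. Values per mouse are given for members with a p under 0.05 and the 2 highest members of each family, with the others given by level. Partners are named at a p under 0.05, the 8 lowest. Some members are counted here but their values are not reported.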

Additional observations from a re-analysis of the deposited data

How the results depend on the processing

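Each result was recomputed under 16 alternatives, of which 6 left out 1 mouse. The number of members called stayed at 0 in all 16 for Tg4-42 against WT. For caffeine-treated against untreated Tg4-42 mice it was 1 with no filter on low counts (Cacna1h, 1 of 37 members, beside 3.2% of all genes). With DESeq2 it was 1 (Cacna1h) for caffeine-treated Tg4-42 against WT mice, beside 3.83% of all genes given an adjusted p. In the same comparison it was 1 (Cacna1h) with no filter on low counts, beside 2.79% of all genes. Leaving out 1 mouse gave 0 to 1, with Scn4b called without the first caffeine-treated mouse, beside 1.67% of all genes. The cause was not tested. The median log2 fold change of the members stayed within 0.05, the SD between mice, except as follows. When 1 mouse was left out it ranged from -0.076 to 0.010 for caffeine-treated against untreated Tg4-42 mice and from -0.053 to 0.12 for caffeine-treated Tg4-42 against WT mice, and limma-voom with quality weights gave 0.12 for the latter.

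The sign turned for members with values near 0. For Tg4-42 against WT, Cacna1a was 0.0025 with a filter at a mean of 50 counts, 0.019 with the replicate block and 0.016 with the lane as a covariate, and leaving out 1 mouse gave -0.14 to 0.12. Nalcn was -0.013 with an exon length correction and -0.054 to 0.099 when 1 mouse was left out, and Cacna1h then ranged from -0.072 to 0.28. For caffeine-treated against untreated Tg4-42 mice, leaving out 1 mouse gave -0.15 to 0.0072 for Scn3b, -0.074 to 0.086 for Cacna2d1 and -0.046 to 0.13 for Cacnb2. For caffeine-treated Tg4-42 against WT mice, Hcn3 was -0.40 to 0.043 when 1 mouse was left out.

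The replicate number, which follows the order of the animal numbers, changed no member's call as a block. It turned Cacng3 into a call (adjusted p = 0.039 in edgeR). Residuals of mice with the same number correlated by 0.14 to 0.19 between Tg4-42 and WT mice, where those of different numbers correlated by -0.16 to 0.0051. The same-number values were -0.17 to 0.18 between caffeine-treated and untreated Tg4-42 mice and -0.17 to 0.0075 between caffeine-treated Tg4-42 and WT mice. The number of all genes called ran from 0 to 987 for caffeine-treated against untreated Tg4-42 mice (153 as reported), from 13 to 74 for Tg4-42 against WT (17) and from 17 to 860 for caffeine-treated Tg4-42 against WT mice (72). In the first of these comparisons it was 0 without the third mouse of either group. It was 3 without the first untreated Tg4-42 mouse and 9 with the lane as a covariate. With so few calls among all genes, the 0 members called under these alternatives say nothing particular about the members. Depth limits Scn10a and Cacna1f, whose intervals are wide, and 3 mice per group limit all values.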
